A study of Mus musculus with 16 samples.

Results

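The 34 cell cycle genes described here were taken by name from a list of genes known for their part in cell division, not by their values, and all 34 were found among the 9223 genes of the deposited table, 1 of them (Pclaf) under an older symbol. They comprise 13 replication genes, 14 mitosis genes and 7 genes of chromatin, tubulin and nuclear transport. Expression was measured by single-cell RNA sequencing in Pmel T cells, CD8+ T cells with a transgenic receptor for a melanocyte antigen that also carry the marker Thy1.1. All cells came from C57BL/6 mice aged 16 weeks with melanoma-associated vitiligo, in which immune cells destroy melanocytes, at 45 days after surgery on the tumor. Cells were taken from the draining lymph node and from skin, lung and liver, and mice without vitiligo were not part of the samples used here. The 4 samples of each tissue have titles that end like sequencing lanes and were treated as 1 library, so no replicates were at hand. The sources used here do not give the number of mice behind a library or say whether any of the 4 came from separate mice.

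Before a cell divides it copies its DNA in S phase and parts the copies in mitosis. The Mcm2 to Mcm7 proteins form the helicase that opens DNA for copying, and enzymes such as ribonucleotide reductase and thymidylate synthase supply the nucleotides. E2F transcription factors switch on many of these genes as a cell leaves G1, whereas genes for mitotic cyclins, the kinase Cdk1 and the spindle peak later and are often controlled through CCAAT boxes and a cell cycle homology region (CHR). Memory T cells are known for dividing slowly, with few cells in cycle at any time.

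Skin gave 1224 cells, lung 2322, liver 556 and lymph node 1625, an order kept for every set of 4 values that follows. Counts summed to between 1928185 in liver and 8072278 in lung, with a median of 2518 to 3096 counts per cell. All 8 T cell markers were present in every tissue, led by Cd3g or Cd8b1 in 98.1% to 99.3% of cells at equal depth. Markers of myeloid cells, B cells, keratinocytes, airway epithelium and endothelium reached at most 4.62% of cells in skin (Perp), 4.93% in lung (Lyz2), 3.21% in liver (Cd68) and 2.61% in lymph node (Pecam1), and these shares were read as the background of single detections. The myeloid markers Csf1r and Adgre1 had no count in any tissue, and no marker of hepatocytes, fibroblasts, erythroid cells or CD4 T cells was among the genes of the table. Cell names of skin and lymph node carry a 2 that those of lung and liver lack, and rows of processed pseudogenes summed to 7766 and 7074 counts per 1000000 in the former pair against 2149 and 2103 in the latter. What separates these library pairs and the tissues themselves cannot be told apart. Up to 7 cell barcodes were shared by a pair of tissues.

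Mitosis genes were higher in skin, lung and liver than in lymph node, and replication genes differed much less. Levels are counts of a gene for every 1000000 counts of all pooled cells of a tissue (CPM), and intervals are exact at 95% for counting error alone. The 14 mitosis genes together stood at 653, 434, 597 and 175 CPM. The lymph node was the low tissue, and its sum was exceeded 3.74-fold in skin (3.45 to 4.07), 2.49-fold in lung (2.30 to 2.69) and 3.42-fold in liver (3.12 to 3.75). The 13 replication genes stood at 808, 581, 630 and 504 CPM, so that the same ratios were 1.60 (1.52 to 1.70), 1.15 (1.10 to 1.21) and 1.25 (1.17 to 1.34). As a result the lymph node had 2.89 replication counts for each mitosis count (2.66 to 3.13), whereas the values were 1.24 in skin (1.17 to 1.31), 1.34 in lung (1.28 to 1.40) and 1.06 in liver (0.972 to 1.14). The chromatin, tubulin and transport genes, at 3346, 2914, 3085 and 2059 CPM, were 1.63-fold, 1.42-fold and 1.498-fold higher than in lymph node. In pooled counts, fewer cells in cycle and less RNA per such cell cannot be told apart, and all 3 comparisons use the same lymph node library.

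Gene by gene, 18 of the 34 exceeded their lymph node level at least 2-fold in skin, where 5.59% of all 8961 genes with a summed count of at least 20 were. In lung 9 of 34 passed this fold, with 3.58% of all genes, and in liver 15 of 34, with 3.92% of all genes. Most of these were mitosis genes, with 13 of 14 past 2-fold in skin, 7 of 14 in lung and 11 of 14 in liver, whereas 3, 1 and 2 of the 13 replication genes passed. Only Hmgn2 in liver was at least 2-fold lower than in lymph node, a direction in which 10.3% (skin), 18.3% (lung) and 22% (liver) of all genes passed. The median log2 ratio of the mitosis genes to lymph node was 2.10 in skin, 1.22 in lung and 1.91 in liver, that of the replication genes 0.60, 0.24 and 0.30, and that of all genes -0.20, -0.41 and -0.45. Scaling by median-ratio size factors raised every log2 ratio to lymph node by 0.20, 0.40 and 0.43, which brought the lung count past 2-fold to 16 of 34, leaves the order of the lists as it is and brings ratios a little below 1 to equality or above. Without the 10 cells of each tissue with the most counts of these genes, the liver count was 9 of 34. The share of all genes past 2-fold was not counted under either setting, so nothing further is read from these counts.

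**Figure D1:**
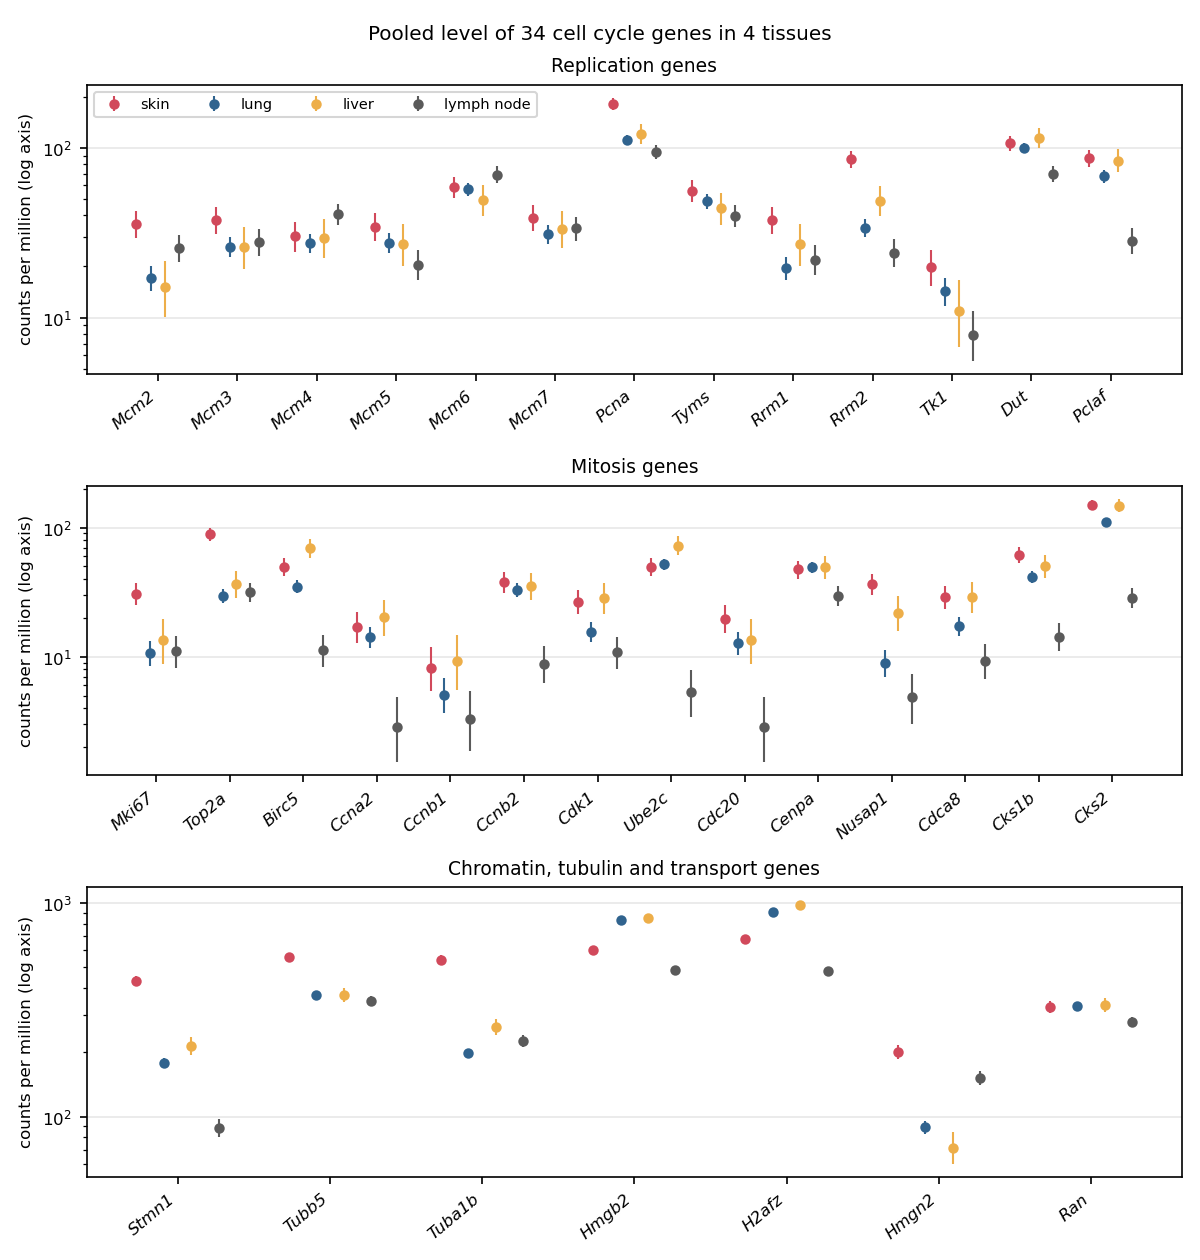
Pooled level of each of the 34 genes in counts per 1000000 (log axis) in skin, lung, liver and lymph node, in 3 panels by role. Points are levels of 1 library and bars their exact 95% counting intervals. Mitosis genes are lowest in lymph node for 12 of 14, whereas Mcm4 and Mcm6 are highest there.

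Ube2c (chr2:164769898-164778822 on GRCm38), which loads ubiquitin for the complex that ends mitosis, stood at 49.8, 51.9, 72.6 and 5.30 CPM. The 3 peripheral tissues lay together and lymph node far below, at ratios of 9.41 (6.11 to 15.1), 9.80 (6.497 to 15.5) and 13.7 (8.85 to 22.1). The cell spread behind these like levels was unlike: 2.37% of skin cells but 8.27% of lung and 6.65% of liver cells had a count (1.57%, 4.64% and 4.16% at equal depth). Of these equal-depth shares, those of skin, lung and lymph node were at or below the highest share of an other-cell marker in the same tissue, and only liver was above it.

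Cks2, a small subunit that docks on cyclin-dependent kinases, was found at 151, 110, 148 and 28.7 CPM. Its ratio to lymph node was 5.25 in skin (4.32 to 6.42), 3.82 in lung (3.17 to 4.63) and 5.15 in liver (4.17 to 6.39). In skin, lung and liver it was counted in more cells than any other mitosis gene, 17.1%, 17.7% and 20.8% of them at equal depth, well above the background shares. In lymph node its share was 4.95%, beside 5.02% for Cenpa. The related subunit Cks1b stood at 61.4, 41.5, 50.3 and 14.3 CPM, in 3.42% to 4.34% of peripheral cells at equal depth, above the background share in liver only. Reads of Cks1b may be shared with its near copy Cks1brt, which was listed at 1.24 to 9.42 CPM.

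Mki67, the gene of the proliferation antigen Ki-67, stood at 30.7, 10.7, 13.5 and 11.03 CPM. Top2a, the topoisomerase that untangles copied chromosomes, stood at 89.0, 29.7, 36.3 and 31.6 CPM. In CPM these widely used markers of cycling cells were thus high in skin alone, at 2.78-fold (1.96 to 3.99) and 2.82-fold (2.30 to 3.47) over lymph node. Their lung ratios to lymph node were 0.966 (0.674 to 1.40) and 0.942 (0.763 to 1.17), and those of liver 1.22 (0.730 to 2.001) and 1.15 (0.852 to 1.54), all with intervals that held equality. Size factors raise these log2 ratios by 0.40 in lung and 0.43 in liver. The Top2a intervals of both tissues then lie above equality, whereas those of Mki67 still hold it. Skin exceeded lung 2.88-fold for Mki67 (2.14 to 3.89) and 2.99-fold for Top2a (2.52 to 3.57). Nusap1, a spindle microtubule protein, had the steepest gradient among peripheral tissues, with 36.5, 8.92, 21.8 and 4.85 CPM, and was 4.09-fold higher in skin than in lung (3.03 to 5.55). At equal depth Mki67 was counted in 3.14%, 1.17%, 1.70% and 1.94% of cells, and Nusap1 in 3.14%, 0.635%, 1.32% and 0.335%. Both lay below the highest share of an other-cell marker in every tissue, as did Top2a in lung.

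Of the cyclin genes, Ccnb2 stood at 37.7, 33.0, 35.3 and 8.83 CPM and Ccna2 at 17.0, 14.3, 20.2 and 2.87 CPM. For both, the intervals of skin over lung and of lung over liver held equality, and lymph node was the low tissue. Ccnb1, with 15 to 41 counts in a tissue, stood at 8.20, 5.08, 9.34 and 3.31 CPM, and its lung ratio of 1.54 to lymph node (0.832 to 2.99) held equality. Their partner kinase Cdk1 was found at 26.7, 15.6, 28.5 and 10.8 CPM, lower in lung than in liver at a ratio of 0.547 (0.396 to 0.766). Cdc20, the activator of the anaphase-promoting complex, stood at 19.7, 12.8, 13.5 and 2.87 CPM. Among genes of the chromosomal passenger complex, which corrects chromosome attachment, Birc5 (survivin) stood at 49.5, 34.9, 69.5 and 11.3 CPM and Cdca8 (borealin) at 28.9, 17.3, 29.0 and 9.27 CPM. Both were highest or level with the highest in liver and lowest in lymph node. Cenpa, the histone variant that marks centromeres, differed least, with 47.4, 49.3, 49.3 and 29.6 CPM and ratios to lymph node of 1.60 to 1.67. At equal depth the shares of cells with Ccnb2, Ccna2, Ccnb1, Cdk1, Cdc20 and Cdca8 were below the background share in every tissue. That of Birc5 was below it in all but liver, and that of Cenpa in skin.

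The replication genes differed among themselves in how far the tissues lay apart. Together, Mcm2 to Mcm7 were at 1.08 of their lymph node level in skin (0.980 to 1.19), 0.855 in lung (0.788 to 0.927) and 0.827 in liver (0.730 to 0.936), and size factors turned the lung and liver ratios to 1.13 and 1.12. Pclaf (chr9:65890237-65903266), a partner of the sliding clamp, stood at 86.9, 67.9, 84.0 and 28.2 CPM and was 3.08-fold (2.49 to 3.82), 2.40-fold (1.98 to 2.94) and 2.98-fold (2.35 to 3.78) higher than in lymph node. Rrm2 (chr12:24708241-24714146), the regulated subunit of ribonucleotide reductase, stood at 85.4, 33.6, 48.8 and 24.1 CPM, at 3.55-fold (2.84 to 4.47), 1.40-fold (1.11 to 1.76) and 2.03-fold (1.52 to 2.70). Its partner Rrm1, the large subunit, followed it only in part with 37.4, 19.6, 26.97 and 21.8 CPM, at 1.71-fold over lymph node in skin (1.30 to 2.25). Pcna, the sliding clamp itself, stood at 182, 111, 121 and 94.2 CPM and was counted in 26.3%, 16.4%, 18.7% and 15.2% of cells at equal depth. Skin was thus the high tissue for Pcna, at 1.93-fold over lymph node (1.71 to 2.20) and 1.64-fold over lung (1.48 to 1.82). Dut, which removes dUTP, stood at 106, 99.7, 114 and 70.2 CPM, with lymph node below the other tissues. Tyms, thymidylate synthase, ranged from 39.7 CPM in lymph node to 55.6 in skin, and Tk1, thymidine kinase, from 7.94 in lymph node to 19.7 in skin. At equal depth the share of cells with Tk1 was below the background share in every tissue, and that of Pclaf in all but liver.

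Mcm4 and Mcm6 were the helicase genes with their highest level in lymph node. Mcm4 stood at 30.1, 27.4, 29.6 and 40.6 CPM and Mcm6 at 58.6, 57.0, 49.3 and 69.5 CPM. For Mcm4 the ratios to lymph node were 0.741 (0.574 to 0.951), 0.674 (0.552 to 0.825) and 0.728 (0.531 to 0.985), and under size factors 0.848, 0.890 and 0.983. For Mcm6 they were 0.844 (0.701 to 1.01), 0.820 (0.709 to 0.949) and 0.709 (0.558 to 0.894), and size factors turned the lung ratio to 1.08. Mcm2 was lower in lung and liver than in skin, with 35.5, 17.1, 15.0 and 25.6 CPM, a 2.08-fold difference between skin and lung (1.61 to 2.68). Mcm5 was lowest in lymph node at 20.5 CPM, against 34.3, 27.5 and 26.97. The liver ratio of Mcm5 to lymph node, 1.31 (0.918 to 1.87), held equality. Mcm3 and Mcm7 ranged from 25.9 to 38.6 CPM, and for both the lung and liver intervals against lymph node held equality.

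E2F-type letters lay in the promoters of more helicase genes than mitosis genes, while CCAAT boxes were found in both, and 6 stretches are shown as examples of these motifs. Promoter windows of 300 bases, 250 before to 50 after the start of a gene, came from RefSeq on GRCm38.p6 for 31 of the 34 genes. Each stretch below is the 190 bases just before the start, 5′ to 3′ on the strand of the gene, and capitals mark motif letters, searched on both strands. In the 3 mitosis genes Mki67 at chr7:135716380-135716569, minus strand, Top2a at chr11:99024190-99024379, minus strand, and Ccnb2 at chr9:70421555-70421744, minus strand, capitals are CHR-type letters (TTTGAA or TTCGAA) and CCAAT boxes.
Mki67: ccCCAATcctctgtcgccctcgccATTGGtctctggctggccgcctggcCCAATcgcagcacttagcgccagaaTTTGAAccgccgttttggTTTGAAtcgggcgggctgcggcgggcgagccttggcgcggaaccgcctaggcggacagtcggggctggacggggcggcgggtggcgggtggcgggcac
Top2a: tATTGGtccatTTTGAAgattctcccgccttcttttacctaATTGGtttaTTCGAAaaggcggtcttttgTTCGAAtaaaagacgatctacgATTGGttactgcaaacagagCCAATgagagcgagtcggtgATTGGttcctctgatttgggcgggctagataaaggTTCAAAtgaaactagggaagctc
Ccnb2: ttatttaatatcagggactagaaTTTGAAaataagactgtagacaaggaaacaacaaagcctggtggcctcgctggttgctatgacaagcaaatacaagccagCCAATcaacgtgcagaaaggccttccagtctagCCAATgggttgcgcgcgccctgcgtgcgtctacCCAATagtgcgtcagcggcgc
In Mcm6 at chr1:128359706-128359895, minus strand, and Mcm5 at chr8:75109319-75109508, plus strand, capitals are E2F-type letters (TTTCCCGC, TTTGGCGC, TTTCGCGC or TTTGCCGC), of which sites on opposite strands overlap within a run. CCAAT boxes of these 2 genes are left in lower case.
Mcm6: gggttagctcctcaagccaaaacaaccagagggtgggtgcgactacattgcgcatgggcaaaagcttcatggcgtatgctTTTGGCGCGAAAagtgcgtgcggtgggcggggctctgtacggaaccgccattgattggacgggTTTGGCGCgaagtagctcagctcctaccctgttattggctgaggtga
Mcm5: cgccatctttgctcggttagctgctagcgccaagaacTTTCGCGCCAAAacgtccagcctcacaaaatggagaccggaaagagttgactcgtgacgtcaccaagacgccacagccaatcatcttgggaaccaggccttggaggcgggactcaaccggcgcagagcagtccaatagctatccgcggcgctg
Cks2 at chr13:51645042-51645231, plus strand, is shown as the mitosis gene counted in most cells of skin, lung and liver, with CCAAT boxes in capitals and no CHR-type letters in its window.
Cks2: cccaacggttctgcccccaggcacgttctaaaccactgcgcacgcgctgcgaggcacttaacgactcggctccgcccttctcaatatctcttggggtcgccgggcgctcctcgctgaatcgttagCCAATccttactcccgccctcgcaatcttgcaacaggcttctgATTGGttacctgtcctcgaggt
CHR-type letters lay in 9 of 13 matched mitosis genes, 2 of 12 replication genes and 1 of 6 of the remaining genes, against 21.7% of all 27025 genes. CCAAT was present 2 or more times in 11 of 13 mitosis genes, 6 of 12 replication genes and 3 of 6 others, against 13.3% of all genes. E2F-type letters were found in 5 of 12 replication genes, namely Pclaf and 4 of the 5 matched helicase genes (Mcm3, Mcm5, Mcm6 and Mcm7), in 1 of 13 mitosis genes (Cdk1) and in 0 of 6 others, against 2.61% of all genes. The same 4 helicase genes held 2 or 3 CCAAT boxes each, and CHR-type letters lay in Mcm2 and Mcm7. Among mitosis genes, Birc5 and Nusap1 held none of the 3 motifs in their windows. A match is a description of letters, and binding was not measured here.

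The chromatin and tubulin genes fell into 2 patterns, with some highest in skin and some highest in lung and liver. Stmn1 (chr4:134468320-134473843), which destabilizes microtubules, stood at 431, 179, 214 and 88.7 CPM and was 4.86-fold (4.35 to 5.45), 2.01-fold (1.80 to 2.26) and 2.41-fold (2.10 to 2.77) higher than in lymph node. Tuba1b, an alpha tubulin, stood at 543, 198, 264 and 226 CPM, and Tubb5, a beta tubulin, at 559, 369, 370 and 349 CPM. Skin was the high tissue for all 3, with Tuba1b 2.75-fold above lung (2.57 to 2.94). Reads of Tuba1b may be shared with the near copies Tuba1a (301, 242, 234 and 130 CPM) and Tuba1c, so its values are uncertain.

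H2afz (chr3:137864487-137866922), which encodes a histone variant found at promoters, stood instead at 681, 913, 982 and 479 CPM. Hmgb2, a DNA-bending chromatin protein, stood at 604, 837, 851 and 487 CPM. For these, lung and liver were above skin, at a skin to lung ratio of 0.746 for H2afz (0.712 to 0.783) and 0.721 for Hmgb2 (0.686 to 0.759). They were not confined to a few cells: H2afz was counted in 57.7%, 75.1%, 73.4% and 57.4% of cells at equal depth and Hmgb2 in 48.5%, 64.5%, 56.0% and 51.3%. Hmgn2, a nucleosome-binding protein, went the other way with 201, 89.1, 71.6 and 151 CPM and was 0.474 of its lymph node level in liver (0.392 to 0.569) and 0.589 in lung (0.530 to 0.655). All 3 genes thus set lung and liver apart from skin and lymph node, the same split as that of the cell names and pseudogene rows, whose part in these results was not tested. Ran, the GTPase of nuclear transport, was nearly level, with 326, 329, 333 and 278 CPM.

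Among the peripheral tissues, 8 of 34 genes were at least 2-fold higher in skin than in lung (15.7% of all genes) and 6 of 34 higher in skin than in liver (16.4% of all genes). No gene was 2-fold lower in skin than in lung (6.37% of all genes) or liver (5.07% of all genes). Between lung and liver 0 of 34 were at least 2-fold higher in lung (3.41% of all genes) and 1, Nusap1, was lower (2.56% of all genes), at a ratio of 0.410 (0.276 to 0.614). For the summed mitosis genes skin was 1.503-fold above lung (1.42 to 1.59), and lung stood at 0.728 of liver (0.681 to 0.779). Without the 10 richest cells of each tissue the latter ratio turned to 1.17. Skin stood at 1.09 of liver (1.02 to 1.18), a ratio that size factors turned to 0.928 and that became 1.58 without the 10 richest cells. The number of genes past 2-fold in skin over liver was 3 with size factors and 14 without the 10 richest cells, and that in lung over liver became 3 without those cells. The shares of all genes were not counted under these settings.

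Counts of mitosis genes came from few cells in every tissue. The top 1% of cells held 40.6%, 38.2%, 40.5% and 39.95% of the mitosis counts, and 22.4%, 25.2%, 26.0% and 26.2% of the replication counts. After thinning to equal depth the mitosis shares were 24.3%, 25.5%, 25.7% and 21.8%. For single genes with at least 100 counts, the median share in the top 1% of cells was 34.4%, 38.4%, 24.6% and 24.5% over members, against 12.8%, 15%, 8.70% and 13.6% over all genes. These medians rest on 27, 31, 13 and 20 members, so they cover different genes and do not compare tissues. A single cell held at most 101, 147, 105 and 48 mitosis counts, and 10 cells held 55.3% of the mitosis counts of liver, the smallest library.

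The share of cells with several mitosis genes followed the pooled levels. After each cell was thinned to 1886 counts, which left 1083, 2049, 529 and 1494 cells, at least 3 mitosis genes were counted in 43 skin cells (3.97%, 2.89% to 5.31%), 57 lung cells (2.78%, 2.11% to 3.59%), 19 liver cells (3.59%, 2.18% to 5.55%) and 11 lymph node cells (0.736%, 0.368% to 1.31%). At this threshold the intervals of the peripheral tissues overlapped each other and did not overlap that of lymph node. In lung this separation was not kept with at least 5 genes, a threshold chosen after the data were seen. The lung interval (0.752% to 1.74%) then overlapped that of lymph node (0.109% to 0.779%) and lay below that of skin (1.80% to 3.82%). Without thinning the shares with at least 3 genes were 4.58%, 6.20%, 5.40% and 1.35%, with lung now highest. These lung cells were also the deepest, at a median of 7075 counts against 2841 in the remaining lung cells. Just outside the threshold, 36, 80, 18 and 25 cells had 2 mitosis genes, and just inside, 9, 22, 3 and 4 cells had 3. Every unthinned cell with at least 3 mitosis genes also had a count of a T cell marker. Cd3g or Cd8b1 alone was counted in 98.1% to 99.3% of all cells at equal depth, so this does not set those cells apart. Scrublet called 2, 0, 1 and 0 of the cells with at least 3 mitosis genes doublets.

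Cells with at least 3 replication genes were less uneven across tissues, at 8.22%, 5.03%, 4.54% and 3.41% by tissue. Of the cells with at least 3 genes of either list, 32, 28, 10 and 9 by tissue passed for both. A further 11, 29, 9 and 2 passed for mitosis alone, and 57, 75, 14 and 42 for replication alone. In lymph node, cells with several mitosis genes and few replication genes were thus rare, whereas lung had as many of them as cells with both.

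**Figure D2:**
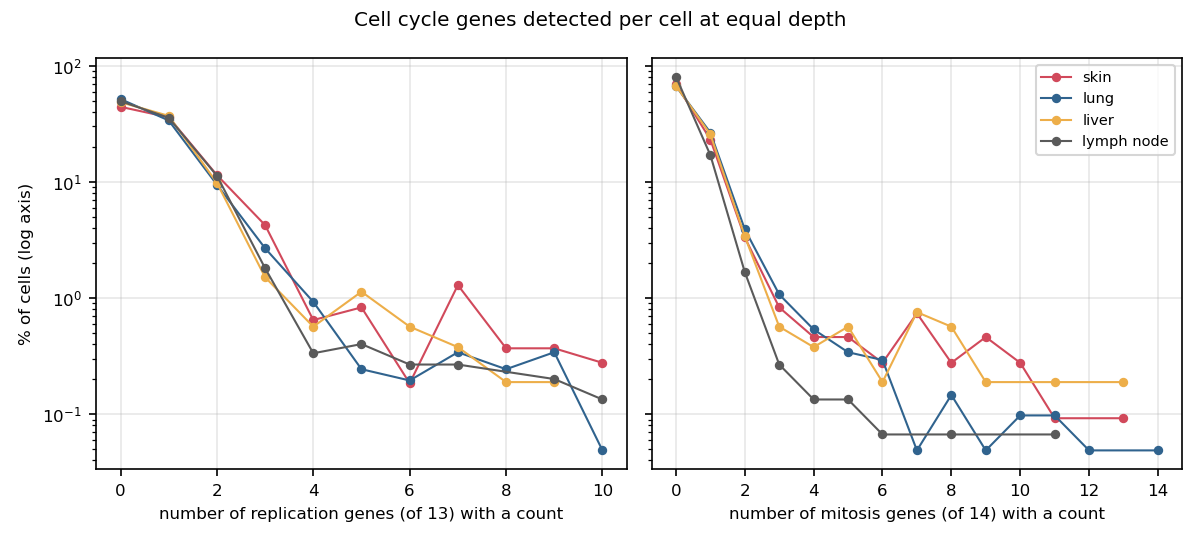
Share of cells (log axis) by the number of replication genes, left, or mitosis genes, right, with a count after thinning to 1886 counts, for skin, lung, liver and lymph node. Numbers of genes found in no cell are not drawn, so lines run across them. From 3 mitosis genes on, lymph node lies below the peripheral tissues at most points, with 0.736% of cells in all.

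To see which cells carry the counts, each tissue was divided by a threshold chosen after the data were seen: cells with a count of at least 5 mitosis genes other than the gene itself, without thinning. The tissues held 44, 78, 21 and 13 such cells, here called marked cells, which held 6.98%, 7.14%, 8.45% and 1.93% of all counts. For a mitosis gene, which is itself not counted, the cells are the same or fewer, with at fewest 41, 62, 20 and 12. The drop is largest in lung. The median mitosis gene had 81.1%, 60.8%, 81.4% and 50% of its counts in them, the median replication gene 39.0%, 35.3%, 46.2% and 17.2%, and the median of all genes 7.30%, 6.52%, 8.11% and 1.68%. At least a 5-fold higher level inside than outside was found for 14 of 14 mitosis and 9 of 13 replication genes in skin (2.41% of all genes), 13 of 14 and 9 of 13 in lung (1.36% of all genes), 13 of 13 and 8 of 13 in liver (1.41% of all genes) and 11 of 11 and 13 of 13 in lymph node (1.9% of all genes). Mitosis genes were part of the rule that marks these cells, and cells in cycle carry them together, so this describes how the genes gather in cells and supports nothing further.

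Replication genes varied widely in this respect. Pclaf had 88.1%, 65.0%, 89.5% and 71.1% of its counts in the marked cells and Rrm2 82.9%, 71.2%, 85.1% and 66.1%, as much as a mitosis gene. Pcna had 21.8%, 16.2%, 31.3% and 12.9%, and Mcm4 32.3%, 20.4%, 15.8% and 9.24%, so most of their counts lay in cells with few mitosis genes. Stmn1 had 77.3%, 62.3%, 84.7% and 56.7% there and was counted in 98.7% to 100% of the marked cells of each tissue. Mki67 was found in 70.7%, 32.9%, 38.1% and 46.2% of the marked cells, and Top2a in 88.1%, 46.7%, 71.4% and 83.3%. The part of depth in these differences between tissues was not tested.

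**Figure D3:**
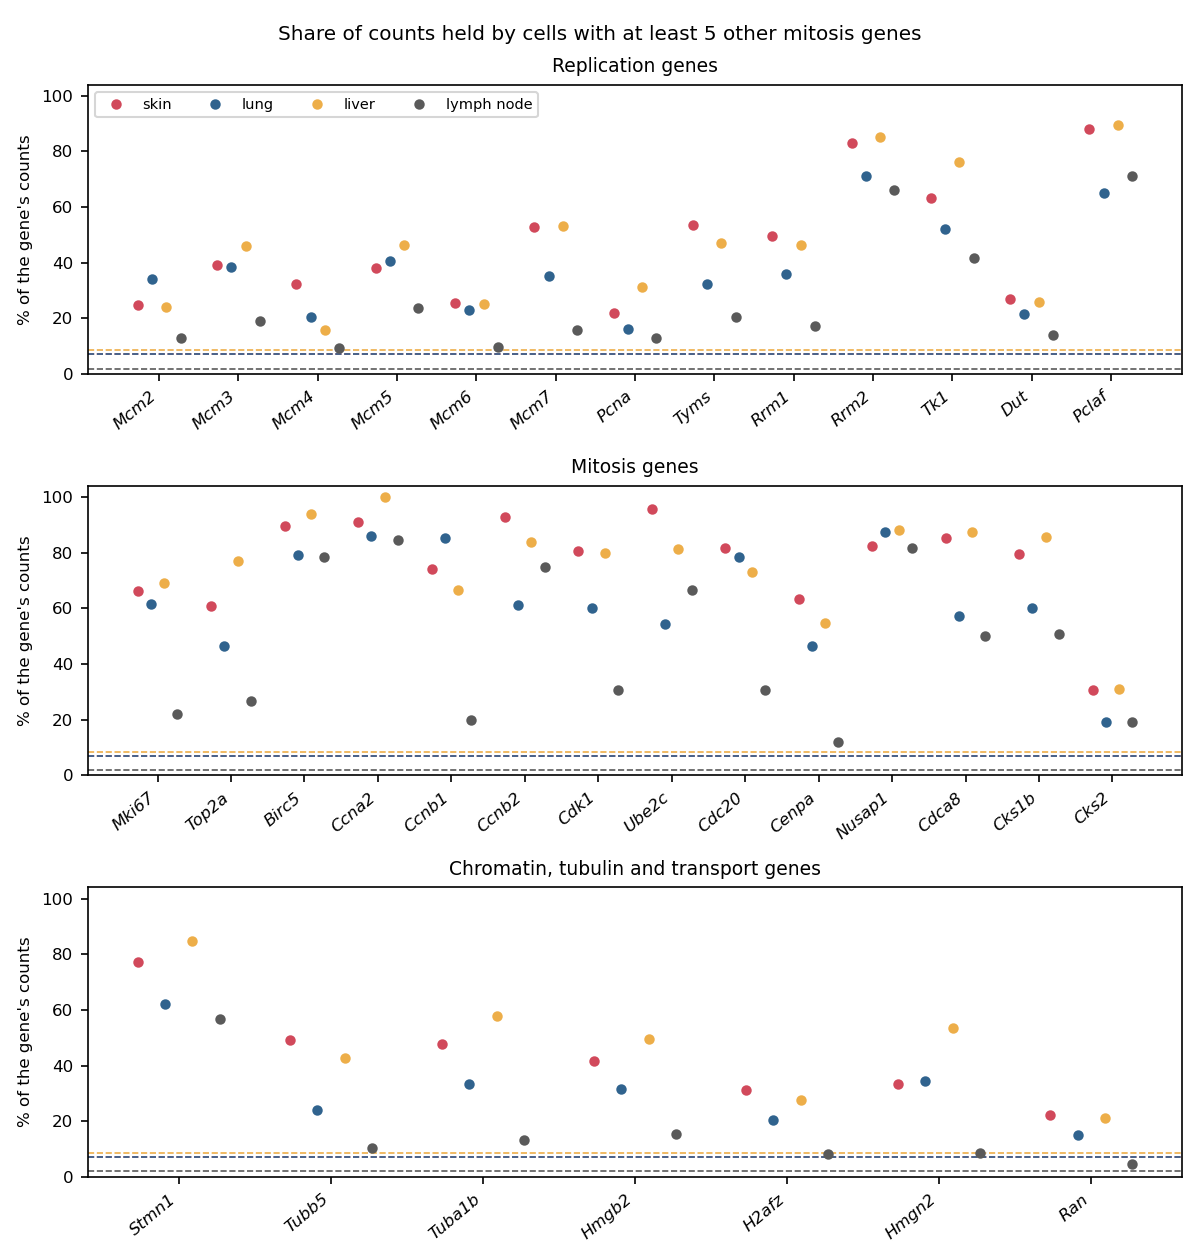
Percent of the counts of each gene that lay in cells with at least 5 other mitosis genes, by tissue. Dashed lines give the share of all counts of a tissue that lay in its cells with at least 5 mitosis genes. Most mitosis genes lie far above the lines, whereas Cks2 (19.2% to 30.9%), Pcna and Mcm4 lie much closer to them.

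Outside the marked cells the replication genes went both ways. Pcna was there at 1.83 of its lymph node level in skin (1.59 to 2.10) and Rrm2 at 1.88 (1.20 to 2.97), whereas Mcm4 was at 0.582 (0.432 to 0.778). The 13 genes together stood at 484, 416, 373 and 409 CPM there, at ratios to lymph node of 1.18 in skin (1.10 to 1.27), 1.02 in lung (0.959 to 1.08) and 0.911 in liver (0.832 to 0.996). Size factors put these ratios at 1.35, 1.34 and 1.23, so the direction in liver rests on the scaling. The helicase genes Mcm2 to Mcm7 together stood at 165, 139, 128 and 192 CPM outside the marked cells, highest in lymph node. Their ratios to lymph node were 0.858, 0.726 and 0.667. With size factors they were 0.982 (0.878 to 1.10), 0.958 (0.874 to 1.05) and 0.901 (0.774 to 1.04), intervals that hold equality.

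Cks2 kept its difference outside the marked cells, with 112, 93.9, 111 and 23.6 CPM. There its ratios to lymph node were 4.75 (3.81 to 5.97), 3.97 (3.23 to 4.93) and 4.71 (3.695 to 6.02), close to those of all cells. Ube2c parted by tissue: it stood at 2.29 CPM in skin, where 157 of 164 counts lay in the marked cells, but at 25.1, 14.7 and 1.80 CPM in the others. The lung level outside, from 191 counts, was 13.95-fold that of lymph node (6.94 to 32.8), although the share of lung cells with a count was below the background share, as given above. In lung, Ccnb2 was likewise 6.05-fold higher (3.16 to 12.99) and Pclaf 3.08-fold higher (2.16 to 4.50) than in lymph node outside the marked cells. Their shares of lung cells at equal depth, 2.93% and 3.90%, were also below the background share. Cells with 3 or 4 mitosis genes lie outside the marked cells. Unthinned, lung had 36 cells with 3 and 30 with 4, skin 10 and 2, liver 7 and 2, and lymph node 5 and 4. For Ube2c itself the marked cells numbered 44, 63, 20 and 13, so some lung and liver cells with 5 mitosis genes also lie outside. The part of this cutoff and of depth in the ratios was not tested. Outside the marked cells of lung, Mki67, unlike Ube2c, Ccnb2 and Pclaf, was at 0.501 of its lymph node level (0.305 to 0.817) and Top2a at 0.722 (0.554 to 0.944). With size factors these were 0.661 (0.403 to 1.08) and 0.954 (0.731 to 1.25), intervals that hold equality. In skin only Cks2, Nusap1, Cks1b and Top2a among mitosis genes kept an interval above equality in CPM, with Nusap1 at 7.60-fold (2.56 to 30.4) from 21 against 4 counts. With size factors Birc5 joined them, at 2.56 (1.13 to 6.05). The ratio of Stmn1 to lymph node was 2.69 in skin (2.23 to 3.25), 1.85 in lung (1.56 to 2.21) and 0.912 in liver (0.672 to 1.22). Size factors put the liver ratio of Stmn1 at 1.23 (0.907 to 1.65).

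**Figure D4:**
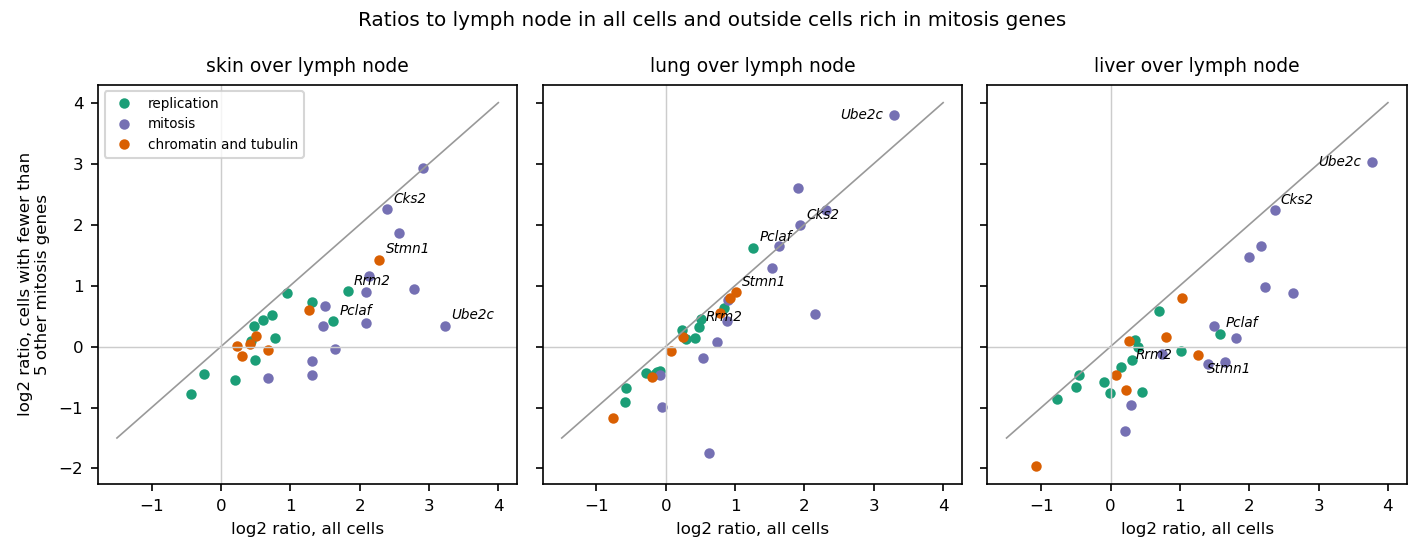
Log2 ratio of each gene to lymph node in all cells (horizontal) and in cells with fewer than 5 other mitosis genes (vertical), for skin, lung and liver; the diagonal marks equal ratios. Ccna2 is not drawn for liver, where it had no count outside. Points for Cks2 stay near the diagonal in all 3 panels, and Ube2c falls far below it in skin only.

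Other genes of the cell cycle were taken from 4 lists of known genes, whose counts stand beside the shares of all genes at least 2-fold higher (5.59%, 3.58% and 3.92% in skin, lung and liver) or lower (10.3%, 18.3% and 22%) than in lymph node. Of the spindle and division genes, 39 of 46 were in the table, and of those with enough counts 21 of 38 exceeded lymph node at least 2-fold in skin, 15 of 39 in lung and 20 of 34 in liver, with 0, 1 and 0 lower. Cenpf, a kinetochore protein, stood at 31.0, 7.80, 17.1 and 3.31 CPM, Hmmr, a spindle protein, at 10.02, 2.97, 5.19 and 0.883 CPM, and Cdkn3, a phosphatase, at 18.5, 12.1, 15.0 and 2.65 CPM. Aurkb, the kinase of the passenger complex, stood at 9.42, 5.20, 13.5 and 1.99 CPM and Cdca3 at 20.7, 17.8, 24.4 and 4.63 CPM. Cdc25b, a phosphatase that activates Cdk1, was by contrast low in skin, with 11.5, 74.0, 64.8 and 19.6 CPM.

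Of the licensing and fork genes, 39 of 42 were in the table, and 5 of 38 were at least 2-fold higher in skin, 1 of 39 in lung and 3 of 38 in liver, with 0, 3 and 2 lower. Nothing is read from these few higher genes, given the shares of all genes above. Gins1, a helicase partner, stood at 8.20, 2.60, 2.59 and 11.03 CPM, lower in lung than in lymph node at 0.236 (0.135 to 0.400), and the chromatin remodeler Hells at 34.6, 14, 19.7 and 33.98 CPM. Gins2, with 11.9, 6.94, 9.34 and 3.53 CPM, Uhrf1, which guides DNA methylation after copying, with 12.5, 5.70, 7.78 and 3.53 CPM, and the histone chaperone Asf1b, with 41.9, 27.1, 35.3 and 17.2 CPM, were lowest in lymph node. Rpa2, which coats single-stranded DNA, stood at 38.0, 105, 83.0 and 52.5 CPM, again with lung and liver apart.

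Of the regulators of G1, 16 of 21 were in the table, with 2 of 16, 2 of 16 and 0 of 14 at least 2-fold higher and 0, 2 and 3 lower than in lymph node, counts too small to set against the shares of all genes. Ccnd2, a D-type cyclin, was highest in lymph node with 809, 312, 454 and 910 CPM, whereas E2f1, from few counts, stood at 6.99, 3.22, 4.15 and 1.32 CPM. Of 18 genes that restrain division, all in the table, 8, 6 and 6 were at least 2-fold higher and 2, 3 and 3 lower. Tob1, an antiproliferative gene, stood at 173, 91.4, 69.0 and 28.5 CPM, and the p21 gene Cdkn1a at 578, 50.5, 71.6 and 15.7 CPM. Klf2, a transcription factor of resting T cells, went the other way in skin, with 134, 1115, 1616 and 276 CPM.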

How the data were processed

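The submitters' processing notes name Bowtie, RSEM and mm10, without versions. The authors deposited counts in whole numbers, in a single table, for 9223 genes in 5727 cells, and the sources used here do not give their filters on genes and cells or say whether unique molecular identifiers were counted. The labels give 4 samples for each tissue whose titles end like sequencing lanes, so the 4 were treated as 1 library, and cells were assigned to tissues by the start of their column name. Of the table's columns 0 were left without a tissue.

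Members, lists and thresholds were chosen with earlier results of these data known. CPM is the sum of a gene's counts over the cells of a tissue, divided by the sum of all genes. Ratios carry the exact conditional binomial 95% interval, levels the exact Poisson interval and shares the Clopper-Pearson interval, all for counting error alone. No test was made, since a tissue has 1 library. A gene was called past 2-fold where its counts in the pair of tissues summed to 20 or more. A count of 0 was set at a floor of 3 counts. Cells were thinned once, with a fixed seed, to 1886 counts, the 10th percentile of depth, and cells below that depth were left out (141 of skin, 273 of lung, 27 of liver, 131 of lymph node). Scrublet (scanpy 1.11.5) with an expected rate of 0.05 called 62 cells doublets (1.08%), which were kept and left out in an alternative. The ratio procedure was run on simulated counts with known folds, drawn with counting error alone as the intervals assume. It therefore does not test the intervals where a few cells carry the counts. Other genes were named from lists of licensing and fork, spindle and division, G1 regulator and restraining genes, at most 6 per list, with at least 50 counts and a ratio of at least 2-fold whose interval excluded equality, by the bound farthest from equality. Promoter sequences are RefSeq's on GRCm38.p6, the assembly also called mm10, and gene positions are those of the GENCODE annotation. Mcm4, Ccna2 and Stmn1 had no entry among the promoters. Alternatives were size factors, totals without ribosomal, mitochondrial and pseudogene rows, equal weight for cells, other thresholds and depths, and leaving out doublets or the 10 cells richest in a list. Python 3.11.15, numpy 2.4.6 and scipy 1.17.1 were used.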

Additional observations from a re-analysis of the deposited data

How the results depend on the processing

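No paired analysis was possible because the table's columns carry no replicate number and each tissue is 1 library. Of 510 ratios of single genes, 412 moved by less than their interval and 98 moved beyond it. Of those whose interval excluded equality, 4 turned to the other side of 1: with size factors, in lung over lymph node, Mcm6 went from 0.820 to 1.08 and Tuba1b from 0.873 to 1.15, and Tuba1b in liver over lymph node went from 1.17 to 0.943 with equal cell weights and to 0.700 without the 10 richest cells. Of the values for summed genes, shares of cells or counts, and numbers of genes, 76 stayed within their interval (numbers of genes, within 1.5 times), 61 moved beyond it and 5 changed direction. Crossings of the 2-fold line numbered 11 with size factors, 11 without the 10 richest cells and 5 with equal cell weights. Leaving out doublet calls moved no summed ratio or share beyond its interval. The cause of each change below was not tested beyond what its setting removes. The 10 cells left out are 0.817% of skin, 0.431% of lung, 1.80% of liver and 0.615% of lymph node cells, so that setting weighs most on liver. Liver, with 556 cells, had the widest intervals.

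Under size factors the summed replication ratio over lymph node was 1.84 in skin, 1.52 in lung and 1.69 in liver, and the mitosis ratio 4.29, 3.29 and 4.62. The skin over lung ratio became 1.21 for replication and 1.30 for mitosis, and the skin over liver ratio 1.09 for replication and 0.928, the opposite direction, for mitosis. The count of genes past 2-fold became 16 in lung over lymph node and 3 in skin over liver, and the matching shares of all genes were not counted. Without ribosomal, mitochondrial and pseudogene rows in the total, replication was 1.49 in skin over lymph node, 1.29 in skin over lung and 1.18 in skin over liver, and mitosis 1.39 in skin over lung and 1.01 in skin over liver. With every cell weighing the same, replication over lymph node was 1.44, 1.07 and 1.09, mitosis over lymph node 3.00, 2.14 and 2.64, mitosis skin over lung 1.40 and lung over liver 0.813.

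Without the 10 cells richest in the list, replication was 1.26 in lung and 1.03 in liver over lymph node, 1.32 in skin over lung and 1.62 in skin over liver, and lung over liver turned to 1.23. Mitosis was then 2.77 in lung and 2.37 in liver over lymph node, 1.36 in skin over lung and 1.58 in skin over liver, and lung over liver turned to 1.17. Genes past 2-fold then numbered 9 in liver over lymph node, 14 in skin over liver and 3 in lung over liver, again without a share of all genes. The following were chosen after the data were seen. Without cells with at least 5 mitosis genes, replication was 1.18 in skin and 1.02 in lung over lymph node and 1.16 in skin over lung, and it turned to 0.911 in liver over lymph node and 1.12 in lung over liver. Without Cks2, Cenpa and Ube2c, mitosis was 2.02 in lung and 2.95 in liver over lymph node, 1.81 in skin over lung and 1.24 in skin over liver.

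The share of cells with at least 3 mitosis genes became 6.20% in lung and 1.35% in lymph node with no thinning. With at least 2 genes it was 7.30%, 6.69%, 6.99% and 2.41% in skin, lung, liver and lymph node, with at least 4 genes 1.71% in lung, with at least 5 genes 2.68% in skin, 1.17% in lung and 0.335% in lymph node, and without Cks2, Cenpa and Ube2c 1.51% in lung. The share of mitosis counts in the top 1% of cells was 24.3%, 25.5%, 25.7% and 21.8% after thinning, and the top 2% held 58.3%, 48.2%, 60.2% and 46.8%.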
